A study of Mus musculus with 5 samples.

Results

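The Hox genes of the mouse Hoxa, Hoxb, Hoxc and Hoxd clusters were examined in 5 samples of bone marrow cells. All probe sets whose annotated symbol is Hox followed by a cluster letter and a number were taken, which gave 41 of 12422 probe sets on each array. Of these, 38 carry 1 symbol and stand for 31 of the 39 genes in the 4 clusters, and 3 list a pair of neighbouring Hox genes, so they count for a cluster but for no single gene. The samples form 1 group of 5: total RNA from marrow cells positive for FLT3, the receptor for the growth factor FLT3 ligand, and for CD11b, an integrin of myeloid cells, which the labels call dendritic cell progenitors. The labels give no strain, genotype, treatment, age, culture or pooling for any of them and no second condition, so the data show where Hox signals stood within each array and how far they varied between samples. Nothing in the labels says that the samples came from separate animals, so p-values measure the spread between these samples, which may be technical.

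Hox genes encode homeodomain transcription factors that are arranged in 4 clusters, in the same order as their domains along the body axis of the embryo. Genes at the same place in different clusters descend from 1 ancestor and share a paralog number. In blood, Hox genes of the A cluster, with partner proteins of the Meis and Pbx families, are known for roles in stem and progenitor cells and in myeloid leukaemia, and the clusters are held active by the MLL complex and silenced by polycomb complexes.

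Signals are array intensities, rescaled so that every array has a median of 103.4. No detection call came with them. Each signal was therefore set against its array's median, a limit that ranks a probe set within an array, and against 19 control probe sets for bacterial and yeast transcripts, which mouse RNA lacks. The highest of these controls read 119.9, 62.6, 105.4, 117.3 and 166.7 in samples 1 to 5, and their medians ran from 11.2 to 24.1. Amounts of different Hox transcripts cannot be compared from these signals, because each probe set has its own sensitivity. In bulk RNA, fewer cells with a transcript and less transcript per cell cannot be told apart.

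Hox signals were low as a group, and the 1 probe set of Hoxa7 stood out. Of the 41 probe sets, 2 were above the array median on all 5 arrays, against 36.7% of all probe sets, and 23 were above it on no array, against 34.1% of all. The median over the 41 of the mean log2 signal minus log2 array median was -1.25, against -0.20 over all 12422 probe sets. Tested against the median over the 5 samples (limma, Benjamini-Hochberg adjustment over all probe sets), 2 were higher, against 37.4% of all probe sets, and 24 lower, against 36.4%. Set against the highest non-mouse control, 1 probe set, that of Hoxa7, exceeded it on all 5 arrays, against 33.1% of all probe sets, and 24 exceeded it on none, against 32.7%. Values under 30.0 were raised to that floor before log2 was taken, so a log2 difference cannot fall below -1.78. Where most values of a probe set lay under the floor, its spread in the test was cut by the floor. Its p-value then does not measure the spread between samples.

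**Figure D1:**
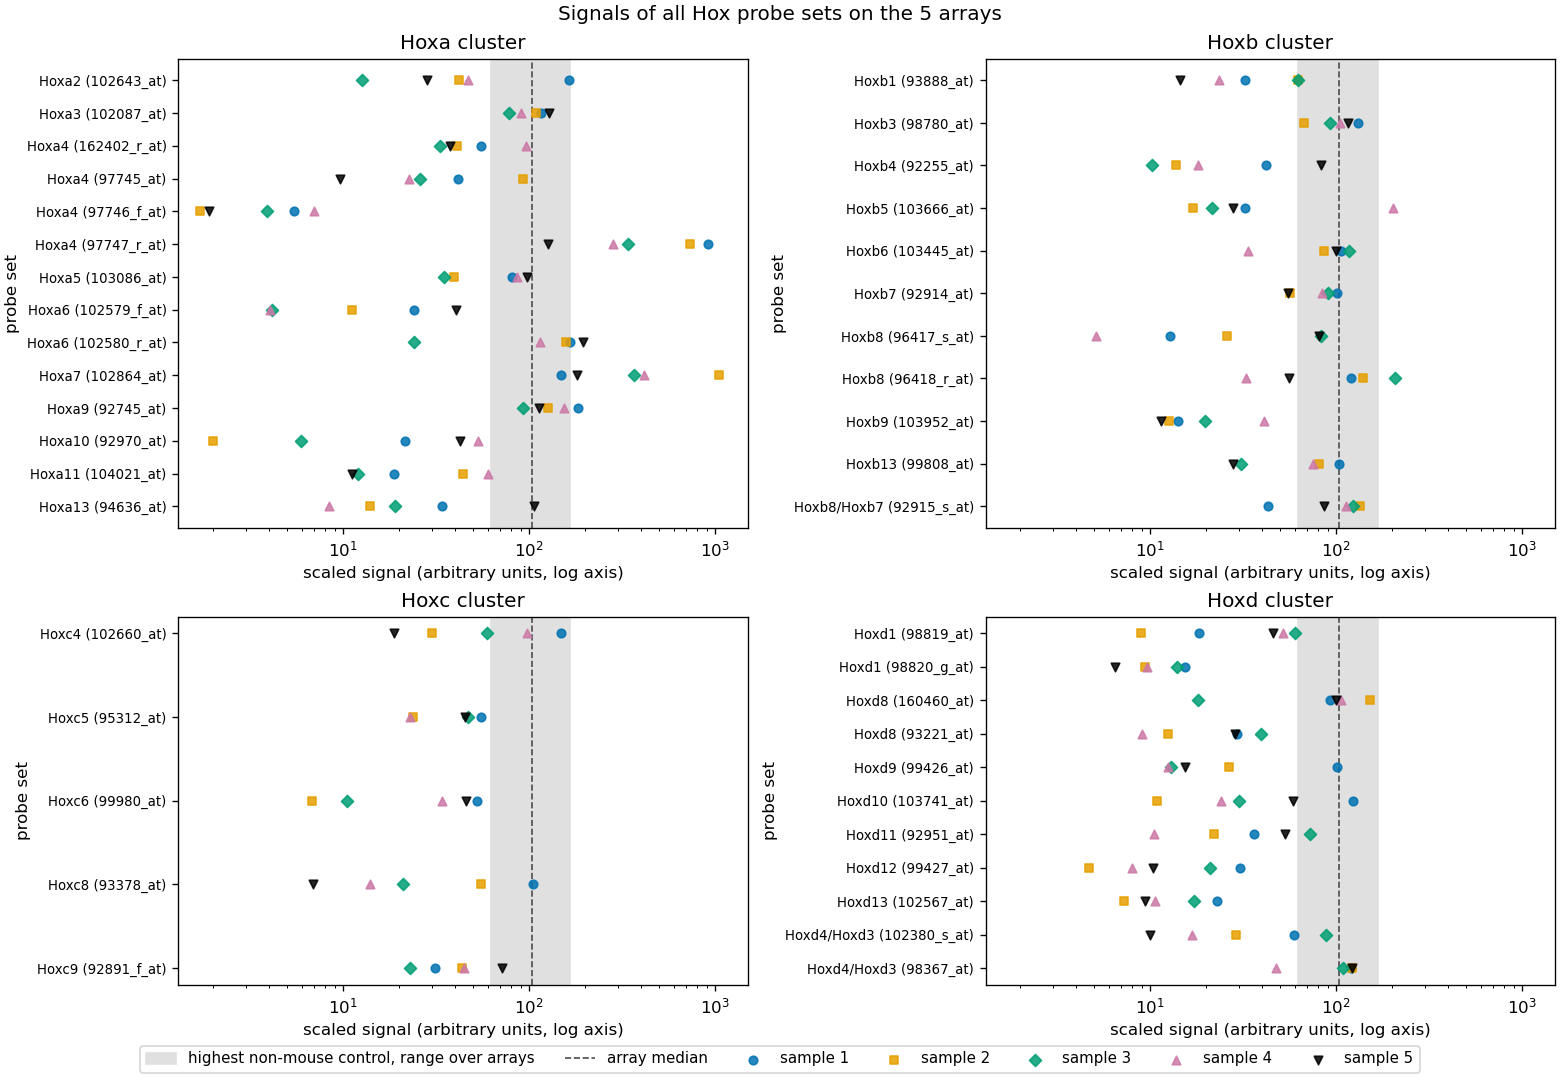
Scaled signal (log axis) of each of the 41 Hox probe sets in samples 1 to 5, by cluster, with the array median of 103.4 as a dashed line and the range over arrays of the highest non-mouse control in grey. Most points lie in or left of the grey band; Hoxa7 and probe set 97747_r_at of Hoxa4 reach 1049 and 919, far to its right.

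For orientation in the genome, 3 stretches of 250 bases before the annotated gene start are shown, because Hoxa7 was the one gene above the highest control on all 5 arrays, Hoxa9 is the next gene of the cluster, and Hoxd13 had every signal under the floor. They come from RefSeq (GRCm38.p6) and read 5′ to 3′ on the gene's strand, with each CG dinucleotide in capitals. Hoxa7 is at chr6:52218574-52218823 on the minus strand, Hoxa9 at chr6:52227371-52227620 on the minus strand and Hoxd13 at chr2:74667975-74668224 on the plus strand.
Hoxa7: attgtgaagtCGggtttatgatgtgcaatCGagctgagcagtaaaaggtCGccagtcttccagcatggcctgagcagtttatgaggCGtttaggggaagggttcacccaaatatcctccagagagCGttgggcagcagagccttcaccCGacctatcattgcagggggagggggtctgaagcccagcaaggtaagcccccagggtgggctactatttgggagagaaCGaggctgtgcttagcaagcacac
Hoxa9: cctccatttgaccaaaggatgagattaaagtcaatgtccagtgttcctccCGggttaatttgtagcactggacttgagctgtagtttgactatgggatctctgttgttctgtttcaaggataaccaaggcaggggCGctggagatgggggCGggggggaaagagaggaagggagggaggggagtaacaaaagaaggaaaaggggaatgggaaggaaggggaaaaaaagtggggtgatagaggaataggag
Hoxd13: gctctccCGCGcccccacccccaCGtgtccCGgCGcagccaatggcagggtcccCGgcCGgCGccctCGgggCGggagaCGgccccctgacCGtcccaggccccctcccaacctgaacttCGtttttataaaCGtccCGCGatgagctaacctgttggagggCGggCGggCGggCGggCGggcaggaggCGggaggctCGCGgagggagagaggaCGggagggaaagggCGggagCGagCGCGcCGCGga

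The window of Hoxa7 held 7 CG dinucleotides, that of Hoxa9 3 and that of Hoxd13 31. Over the 24 windows found for 22 Hox genes the number ran from 2 to 35 with a median of 12.5, against a median of 6 over all 32851 windows of the table. The GC box, GGGCGG on either strand, was found in 10 of 24 Hox windows and in 32.7% of all windows, 7 times before Hoxd13, once before Hoxa9 and nowhere before Hoxa7. The CCAAT box, CCAAT on either strand, was in 14 of 24 Hox windows and 33.8% of all, and the TATA box, TATAAA on either strand, in 4 of 24 and 12.4%. No motif is contained in another, but TATAAA matches on opposite strands can overlap, as the 2 before Hoxd13 do. A match describes the sequence only. Windows were found for 20 of the 31 genes with a probe set of their own, and no test was made of motifs against signals.

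The Hoxa cluster, on mouse chromosome 6, held both probe sets above the median on all 5 arrays. Hoxa7, a middle-cluster gene known from haematopoietic progenitors and leukaemia, had signals of 149, 1049, 364, 416 and 181 in samples 1 to 5. It has 1 probe set, so no other could be compared with it. All 5 lay above both the array median and the highest control of their array, from the 58.4th percentile of its array in sample 1 to the 92.1st in sample 2. Sample 5 was the closest to its control, 181 against 166.7. The mean log2 signal was 1.70 ± 0.45 (SE, n = 5) above the median, a factor of 3.25 (limma adjusted p = 0.0194). This call was lost without sample 3 (limma, difference of 1.67, adjusted p = 0.0710) and without sample 4 (1.62, adjusted p = 0.0740), while Hoxa7 stayed above the median on every array. A limit at the 75th percentile in place of the median ended it as well (limma, difference of 0.07, adjusted p = 0.834).

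Hoxa9, which is required for normal myeloid and lymphoid progenitor function and is a well-known leukaemia oncogene, lay near the middle of each array. Its signals were 184, 126, 92.9, 154 and 113 in samples 1 to 5. It was above the array median in all but sample 3, and above the highest control in samples 1, 2 and 4. The mean log2 signal was 0.33 ± 0.17 (SE, n = 5) above the median, which did not pass the test (limma adjusted p = 0.129), though it did with the limit at the 40th percentile (difference of 0.98, limma adjusted p = 0.00457). Hoxa10, which follows Hoxa9 in the cluster and is also known from progenitors and leukaemia, had 21.4, 1.99, 5.92, 53.0 and 42.3. It lay below the median on every array, and the difference of -1.52 ± 0.16 (SE, n = 5) passed the test (limma adjusted p = 0.000540).

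**Figure D2:**
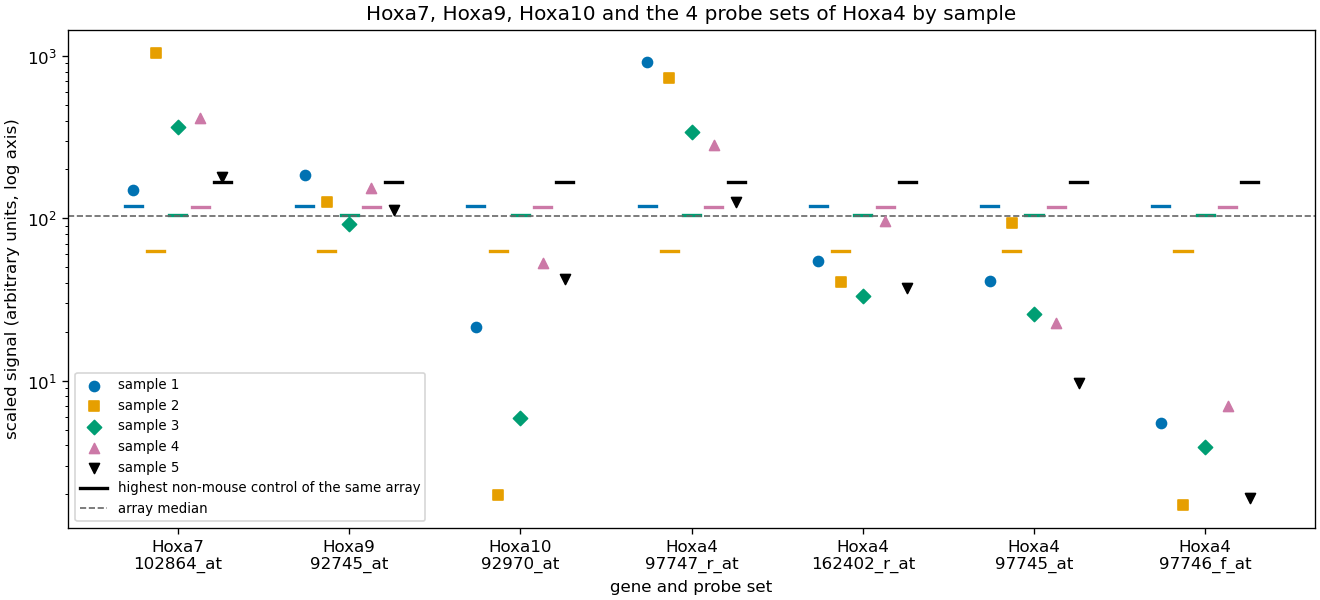
Scaled signal (log axis) of Hoxa7, Hoxa9, Hoxa10 and the 4 probe sets of Hoxa4 in samples 1 to 5; short bars give the highest non-mouse control of the same array and the dashed line the array median of 103.4. Hoxa7 is above both limits in all 5 samples, Hoxa10 below both, and of the Hoxa4 probe sets 97747_r_at alone has points above the line, with that of sample 5, at 126, under its array's control.

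Hoxa4, an anterior-to-middle gene of the cluster, gave probe sets that disagreed. Probe set 97747_r_at had 919, 736, 340, 282 and 126 in samples 1 to 5, all above the median and all but sample 5 above the highest control. Its difference from the median of 1.89 ± 0.46 (SE, n = 5) passed the test (limma adjusted p = 0.0147). The call was lost without sample 1 (limma, 1.57, adjusted p = 0.0507), without sample 2 (1.65, adjusted p = 0.0579) and without sample 3 (1.93, adjusted p = 0.0532), and with the limit at the 75th percentile (0.26, adjusted p = 0.436).

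The other 3 probe sets of Hoxa4 were below the median on every array. Probe set 97745_at ran from 9.67 to 93.0, 162402_r_at from 33.1 to 95.9 and 97746_f_at from 1.71 to 6.998, and all 3 were called lower (limma adjusted p = 0.00874, 0.0129 and 9.89e-08). The last was made from the same sequence accession as 97747_r_at. All 5 values of 97746_f_at lay under the floor and under the highest control, so its spread counts as 0 in the test. For that reason no ratio between it and 97747_r_at was taken, and the level of Hoxa4 is uncertain. The suffix r marks a probe set that broke some of the maker's rules for choosing probes, and f one whose probes match a family of related sequences. Over the whole array, 16.1% of the probe sets ending in r_at were above the median on all 5 arrays, against 39.0% of those ending in plain _at.

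Hoxa6 also had 2 probe sets that share 1 accession and differed, though neither was called higher than the median over the 5 samples. Probe set 102580_r_at had 165, 158, 24.1, 115 and 195 in samples 1 to 5, above the median in all but sample 3. Its difference of 0.12 ± 0.45 (SE, n = 5) was not called (limma adjusted p = 0.826), but without sample 3 it was 0.59 and was called (limma adjusted p = 0.0309). Probe set 102579_f_at ran from 4.04 to 40.2 and was lower than the median (limma adjusted p = 2.68e-05). All its values but that of sample 5 lay under the floor.

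Among the anterior genes of the cluster, Hoxa3, which patterns the pharyngeal region, had 116, 109, 78.0, 90.0 and 128. These values straddled the median, with 3 arrays above it (difference of -0.01 ± 0.14, SE, n = 5, limma adjusted p = 0.952). Hoxa2, a hindbrain gene, had 164, 42.1, 12.6, 46.8 and 28.4, above the median in sample 1 alone (limma adjusted p = 0.0646). Hoxa5 ran from 34.96 to 96.9 and was above it on no array (limma adjusted p = 0.0682). At the posterior end, Hoxa11, a limb and urogenital gene, ran from 11.2 to 60.2 and was called lower (limma adjusted p = 0.00128). Hoxa13, the last gene of the cluster, had 34.0, 13.9, 19.0, 8.40 and 107, above the median in sample 5 alone, and was called lower (limma adjusted p = 0.0129). In all, 2 of 14 Hoxa probe sets were called higher, 7 lower and 5 neither way, against 37.4% higher and 36.4% lower of all probe sets. The antisense gene Hoxa11os, not counted among the 41, was above the median on no array with either of its probe sets.

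The Hoxb cluster, on chromosome 11, had 11 probe sets for 9 genes, of which 0 were called higher, against 37.4% of all probe sets, and 4 were called lower, at the same share as the 36.4% of all. Several of its signals lay close to the median. Hoxb3, an anterior gene expressed in early blood progenitors, had 130.3, 66.7, 92.9, 105 and 116 in samples 1 to 5. It was above the median on 3 arrays (difference of -0.05 ± 0.17, SE, n = 5, limma adjusted p = 0.784). Hoxb4, known for expanding blood stem cells when supplied in culture, had 42.0, 13.8, 10.2, 18.0 and 82.5. All of these were below the median, and the gene was called lower (limma adjusted p = 0.00541).

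Hoxb6 had 107, 85.5, 117, 33.4 and 99.3, above the median in samples 1 and 3 (limma adjusted p = 0.345). Hoxb7 ran from 55.2 to 101 and was above it on no array (limma adjusted p = 0.0691). Hoxb8, known for arresting myeloid progenitors when it is overexpressed, again had 2 probe sets from 1 accession. Probe set 96418_r_at had 120.4, 140.0, 208, 32.7 and 56.0, above the median in samples 1, 2 and 3 (limma adjusted p = 0.733). Probe set 96417_s_at had 12.7, 25.9, 83.0, 5.13 and 81.2, all below it, and was called lower (limma adjusted p = 0.0211).

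Probe set 92915_s_at, listed to both Hoxb7 and Hoxb8, had 43.2, 134, 124, 112 and 86.2 and was above the median on 3 arrays (limma adjusted p = 0.636). Hoxb5 had 32.4, 17.1, 21.4, 201 and 28.0, so that its mean rested on sample 4 (limma adjusted p = 0.0732). Hoxb1, a hindbrain gene, ran from 14.5 to 62.6, and Hoxb9 had 14.1, 12.7, 19.8, 40.9 and 11.5 in samples 1 to 5. Both were called lower (limma adjusted p = 0.00410 and 3.26e-05). All values of Hoxb9 but that of sample 4 lay under the floor. Hoxb13, the most posterior gene of the cluster, ran from 27.7 to 103.5 and was just above the median in sample 1 alone (limma adjusted p = 0.0695).

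The Hoxc cluster, on chromosome 15, was measured for 5 of its 9 genes, each with 1 probe set. None was above the median on more than 1 array, and 4 of the 5 were called lower, against 36.4% of all probe sets. Hoxc4, the only one not called lower, had 149, 30.0, 59.2, 97.5 and 18.8, above the median in sample 1 (limma adjusted p = 0.145). Hoxc8 ran from 6.87 to 105, with sample 1 alone above the median, and was called lower (limma adjusted p = 0.0193). Hoxc5 ran from 23.0 to 54.9, Hoxc6 from 6.83 to 52.4 and Hoxc9 from 22.9 to 71.5, all 3 below the median on every array and called lower (limma adjusted p = 0.00115, 0.000599 and 0.00332).

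The Hoxd cluster, on chromosome 2, had 11 probe sets for 7 genes plus the pair Hoxd3 and Hoxd4. Of these, 9 were called lower, against 36.4% of all probe sets, and 0 higher, against 37.4%. The posterior genes of the cluster are known from limb, genital and gut development. Hoxd13 ran from 7.25 to 23.0 and Hoxd12 from 4.69 to 30.5, with limma adjusted p = 9.89e-08 and 1.08e-07. All values of Hoxd13 lay under the floor, so its spread counts as 0 in the test. Those of Hoxd12 did too, except 30.5 in sample 1. Its SD of log2 signal was therefore 0.0088, and its p-value reflects the floor. Hoxd11 ran from 10.4 to 72.5 (limma adjusted p = 0.00451). Hoxd10 had 123, 10.8, 29.9, 24.1 and 58.4, above the median in sample 1 alone, and was called lower (limma adjusted p = 0.0337). Hoxd9 had 101, 26.6, 12.9, 12.4 and 15.3 and was called lower (limma adjusted p = 0.0102). The platform annotation gives the probe sets of Hoxd9 and Hoxd10 the same accession, and both read highest in sample 1.

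Hoxd8 gave a further disagreement between probe sets. Probe set 160460_at had 92.6, 151, 18.0, 105 and 99.5, above the median in samples 2 and 4 (limma adjusted p = 0.508), while 93221_at ran from 9.02 to 39.5 and was called lower (limma adjusted p = 2.16e-05). All values of 93221_at but that of sample 3 lay under the floor. Both probe sets of Hoxd1 were below the median on every array, from 6.49 to 59.7. Of the probe sets listed to both Hoxd3 and Hoxd4, 98367_at had 119.6, 121, 109, 47.6 and 122, above the median in all but sample 4 (limma adjusted p = 0.803), and 102380_s_at ran from 9.93 to 87.9 and was called lower (limma adjusted p = 0.0123). Among the 5 Hox genes with several probe sets, the one with the highest mean ended in r_at for Hoxa4, Hoxa6 and Hoxb8.

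By paralog number, probe sets above the median on at least 3 arrays were found at numbers 3, 4, 6, 7, 8 and 9. At numbers 4, 6 and 8 they were r_at probe sets of Hoxa4, Hoxa6 and Hoxb8, each with another probe set of its gene called lower. Of the 41 Hox probe sets, including those listed to a pair of genes, 9 passed this rule, against 6074 of all 12422. Over genes with a symbol of their own, numbers 1 to 4 had 1 of 12 probe sets above the median on all arrays, numbers 5 to 8 had 1 of 14, and numbers 9 to 13 had 0 of 12. The share over all probe sets was 36.7%. Called lower were 7 of 12, 6 of 14 and 10 of 12, against 36.4% of all probe sets, which is near the share at numbers 5 to 8. The 2 probe sets of number 9 to 13 without such a call were those of Hoxa9 and Hoxb13. Of the 4 paralogs of number 9, Hoxa9 was above the median on 4 arrays and Hoxb9, Hoxc9 and Hoxd9 on none. Of the pair with number 7, Hoxa7 was above it on all 5 arrays and Hoxb7 on none. Both genes measured for number 3, Hoxa3 and Hoxb3, were above it on 3 arrays. These counts describe the rows and columns of the clusters, and no difference between them was tested.

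**Figure D3:**
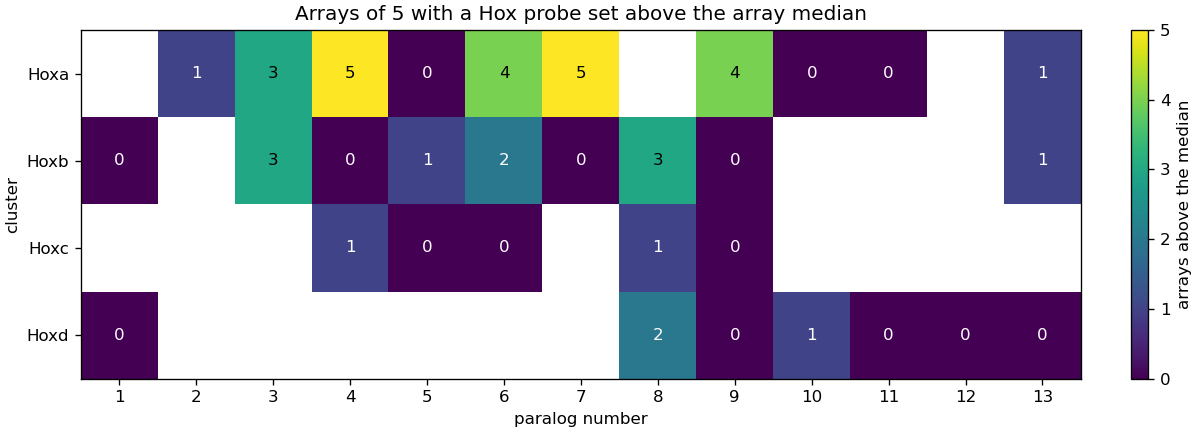
Number of the 5 arrays on which a Hox gene was above the array median, by cluster and paralog number, for the probe set with the highest number where a gene has several; white squares have no gene or no probe set of their own. The Hoxa row holds the squares with 4 or 5 arrays, at numbers 4, 6, 7 and 9.

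No Hox probe set was called in the test of variance between samples. It took the 4 of the 41 whose mean log2 signal was above the median, namely those of Hoxa7 and Hoxa9, 97747_r_at of Hoxa4 and 102580_r_at of Hoxa6. Limma called 0 of these 4, with 2 at an unadjusted p under 0.05, and 0 of all 5814 probe sets tested (0%), with 290 at an unadjusted p under 0.05. The SD of log2 signal was 1.12 for Hoxa7 (limma adjusted p = 0.925) and 1.15 for Hoxa4 (adjusted p = 0.925), against 0.38 for Hoxa9 and a median of 0.47 over all 5814. From its lowest to its highest sample the signal of Hoxa7 differed by a factor of 7.05 and that of Hoxa4 by 7.27. The orders differed: Hoxa7 was highest in sample 2 and lowest in sample 1, and Hoxa4 was highest in sample 1 and lowest in sample 5.

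One sample of 5 stood far from the other 4 by Dixon's test, run before log2, in 6 of the 41 probe sets, against 10.1% of all probe sets. Counted per array, 14, 9, 6, 8 and 8 of the 41 Hox probe sets were above the median in samples 1 to 5. By this limit sample 1 had the most and sample 3 the fewest. Above the highest non-mouse control of the array were 9, 13, 6, 4 and 2 of them, against 46.6%, 60.6%, 49.5%, 47.3% and 38.6% of all probe sets. By that limit sample 2 had the most and sample 5 the fewest, among the Hox probe sets as among all. Sample 1 is the array deposited on a different scale, with a trimmed mean of 1001 against 200.1 in each of the others. The ratio of 3′ to 5′ signal of the transferrin receptor control, which rises with shorter RNA, was 3.14 in sample 1 and 16.7 in sample 3, and the part of RNA length in these counts was not tested. Without sample 1, the difference of Hoxa7 from the median was 1.99 (limma adjusted p = 0.0277).

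Of the cofactors that bind DNA together with Hox proteins, Pbx2, Pknox1 and 1 of 3 probe sets of Pbx3 were higher than the median, and Meis1 and Meis2 lower. Of 6 measured genes of this class, 3 were called higher than the median and 2 lower, against 45.4% and 28.7% of all 8251 genes. Pbx2 had 137, 133, 219, 156 and 257 in samples 1 to 5, above the median and the highest control on all 5 arrays (limma adjusted p = 0.0141). Pbx3 had 125, 360.2, 220.3, 244 and 124 (limma adjusted p = 0.0269) by probe set 93615_at, but 93616_g_at was below the median on 2 arrays and not called, and 96580_at was below it on 4 and called lower (difference of -0.86, limma adjusted p = 0.0461). Pknox1 had 106, 139, 283, 167 and 226 (limma adjusted p = 0.0336). Meis1, the partner of Hoxa9 in leukaemia, had 20.9, 20.3, 16.0, 30.8 and 68.9, below the median on every array (limma adjusted p = 0.00185). Meis2 ran from 3.27 to 29.2 and was called lower (limma adjusted p = 9.89e-08), with all values under the floor, so its spread counts as 0 in the test. Meis3 reached 223 in sample 3 alone (limma adjusted p = 0.115).

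Genes of the complexes that maintain or silence the clusters were taken as 3 lists, and no difference between the lists was tested. Counted as above the median on all 5 arrays were 12 of 17 polycomb genes, 5 of 12 trithorax and MLL genes and 3 of 9 genes among the Cdx factors and other regulators, against 44.5% of all genes. By limma, 12 of the 17 polycomb genes were called higher and 2 lower, 5 of the 12 trithorax and MLL genes higher and 2 lower, and 3 of the 9 regulators higher and 4 lower, against 45.4% and 28.7% of all genes. Bmi1, a core subunit of the silencing complex PRC1, had 302, 898, 895, 1368 and 528 (limma adjusted p = 0.00106). Rnf2, its ubiquitin ligase partner, had 240.3 ± 105 (SD, n = 5) and Pcgf2 151 ± 31.1, while Ring1, another PRC1 ligase, had 89.6 ± 39.2 and was not called (limma adjusted p = 0.345). Kmt2a, which encodes MLL, had 396 ± 133 (limma adjusted p = 0.000732), and Psip1, which tethers it, 176 ± 33.1 (limma adjusted p = 0.00352). Men1, which encodes the MLL partner menin, had 112 ± 77.8 and Mllt1, an MLL fusion partner in leukaemia, 86.9 ± 71.8 (SD, n = 5), and neither was called. The other 3 called higher were Wdr5, Dpy30 and Hcfc1, named after their values were seen. The Cdx genes, which activate Hox genes in the embryo and in early blood, were below the median on every array, with Cdx1 at 21.8 ± 17.8, Cdx2 at 33.1 ± 33.5 and Cdx4 at 16.8 ± 9.41 (SD, n = 5). The retinoic acid receptor gene Rara had 79.0 ± 35.6 and was not called (limma adjusted p = 0.153), and the 3 called higher were Rxrb, Gmnn and Ctcf, named after their values were seen.

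Other homeobox genes were also mostly low. Of 22 measured, 5 were called higher than the median and 13 lower, against 45.4% and 28.7% of all genes. Their median difference was -1.35, against 0.38 over all genes. The genes called higher were Hhex, Hlx, Satb1, Cux1 and Zeb1, named after their values were seen. Evx1 and Evx2, which lie beside the Hoxa and Hoxd clusters, had 21.7 ± 11.8 and 68.0 ± 38.7 (SD, n = 5), and Gbx2 and Gsx1, 2 patterning genes outside the clusters, 18.7 ± 8.48 and 54.7 ± 27.2. Of 9 measured genes listed as possible targets of Hoxa9 in myeloid cells, 7 were called higher and 0 lower, against 45.4% and 28.7% of all genes; the list was written from general knowledge, and binding was not measured here. They included the kinase gene Pim1 at 1593 ± 316 and Id2, which encodes an inhibitor of E proteins, at 3977 ± 1976, while Sox4, at 174 ± 117, and Bcl2, at 128 ± 104, were not called.

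**Figure D4:**
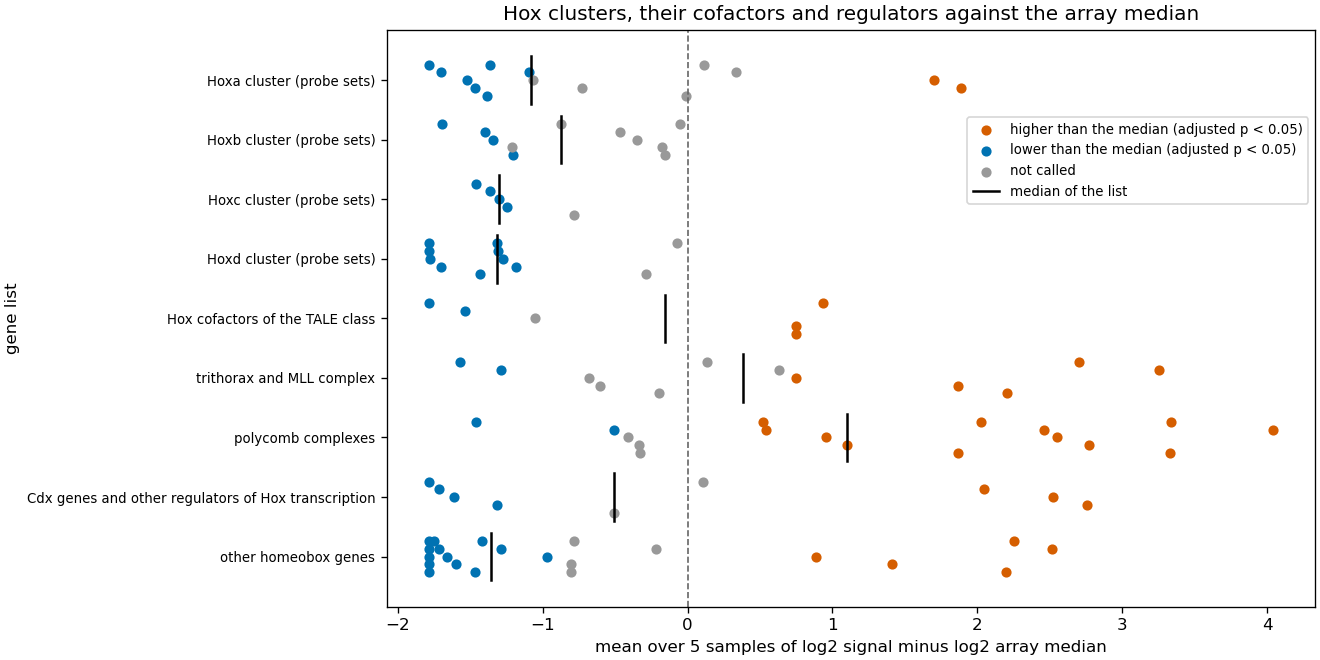
Mean over 5 samples of log2 signal minus log2 array median for each Hox probe set, by cluster, and for each measured gene of 5 related lists; colours give the limma call at an adjusted p of 0.05 and vertical bars the median of each list. The medians of the Hox clusters, over probe sets, lie between -1.31 and -0.87, against -0.20 over all probe sets. That of the polycomb list, with the brightest probe set per gene, lies at 1.10, against 0.38 over all genes.

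Marker genes of the gate and of several cell types were examined. No list of dendritic cell genes was taken, and the gate genes encode the proteins named in the label, so the label itself was not checked. The gate genes were above the highest control on every array, with 745 ± 463 for Flt3 and 477 ± 215 for Itgam, which encodes CD11b (SD, n = 5), and 10 of 10 granulocyte and monocyte genes were higher than the median. Of 8 measured early progenitor genes, which mark cells in which Hoxa genes are known to be active, 4 were called higher, close to the 45.4% of all genes, and 1 lower, against 28.7%; Kit had 184 ± 35.1 and Cd34, not called, 127 ± 51.5. Of stromal genes, whose cells can express Hox genes of several clusters, 1 of 12 was called higher and 7 lower, with a summed signal between 1010.2 and 1522 per array. Col1a2 had 522 ± 256 by an r_at probe set, and Cxcl12 was below the median on every array at 38.5 ± 23.9. Of endothelial genes 2 of 6 were called higher and 3 lower, and of B cell genes 1 of 6 higher and 1 lower. Of erythroid genes 0 of 5 were called higher and 2 lower, and of T and NK cell genes 0 of 7 higher and 6 lower. These counts, and those of the stromal and of the granulocyte and monocyte genes, stand against 45.4% higher and 28.7% lower of all genes. The part of such cells in the Hox signals was not tested.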

How the data were processed

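The authors deposited 1 intensity value per probe set and array on a linear scale; no source used here states the software or scaling. The 66 control probe sets were set aside, each array was scaled to a common median of 103.4, and values under the 25th percentile, 30.0, were raised to it before log2. Genes were named through the platform annotation: 10833 probe sets had 1 symbol, 396 several and 1193 none, and all 31 Hox symbols were in the RefSeq table (GRCm38.p6). For other lists, the brightest probe set by mean stood for its gene. Limma 3.58.1 in R 4.3.3 tested log2 signal minus log2 array median against 0 (two-sided, trend and robust options), with Benjamini-Hochberg adjustment over all probe sets. Each variance was tested against its fitted F distribution, with adjustment over the 5814 probe sets whose mean log2 signal was above the median. Procedures were tested on simulated data. Values in every sample are given for Hox probe sets above the median on at least 3 arrays or with an outlying sample, and for some others; all measured cofactor genes may be named and, of each other list, the first 4 measured. The members and lists were chosen with earlier results of these data known. The number of arrays limits the precision.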

Additional observations from a re-analysis of the deposited data

Results flagged for a closer look

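In 6 of the 41 Hox probe sets 1 sample stood far from the other 4 by Dixon's test, against 10.1% of all probe sets. The test was run on scaled signals before log2. Its nominal rate of 1 in 20 groups is for normally distributed values, which these signals were not shown to be. The samples were sample 1 for Hoxa2 at 164 and Hoxd9 at 101, sample 4 for Hoxb5 at 201, for Hoxb9 at 40.9 and for probe set 98367_at of Hoxd3 and Hoxd4 at 47.6, and sample 5 for Hoxa13 at 107. The last but one was the low sample of its probe set; the others were high. Hoxb9 at 40.9 and Hoxa13 at 107 lay below the highest non-mouse control of their arrays, at 117.3 and 166.7, and Hoxd9 at 101 below 119.9.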

How the results depend on the processing

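The counts of Hox probe sets above the median (2), called higher (2) and called lower (24) kept within a factor of 1.5 with the values as deposited, quantile normalization, 1 probe set per gene, a floor at the 10th percentile and a plain eBayes fit, and the variance test called 0 under each alternative run. With 1 probe set per gene the total changed as well, and 16 of 31 genes were called lower, against 28.7% of all genes. With the limit at the 40th percentile 5 were above it on all arrays and 5 were called higher. At the 75th percentile the counts were 0 above, 0 higher and 39 lower. The shares over all probe sets at these 2 limits are not given here. A higher limit puts more of all probe sets below it, so these counts describe the Hox probe sets alone. With 3 arrays sufficing 9 were above the median, against 6074 of all 12422. Added after seeing the data, the limit at the highest non-mouse control left 1, against 33.1% of all probe sets. Plain _at probe sets alone gave 1 above and 1 higher of 30, against 3747 and 3817 of all 9614 such probe sets. Leaving out 1 sample gave 2 to 4 above the median and 1 to 2 higher, with 19 to 23 lower; without sample 3 the one called higher was 102580_r_at of Hoxa6. Differences near 0 changed sign: at the 40th percentile Hoxa3 to 0.64, Hoxb3 to 0.59, 98367_at of Hoxd3 and Hoxd4 to 0.57, 92915_s_at of Hoxb7 and Hoxb8 to 0.49 and 96418_r_at of Hoxb8 to 0.47; at the 75th Hoxa9 to -1.30 and 102580_r_at to -1.51. Leaving out 1 sample gave -0.090 to 0.089 for Hoxa3, -0.15 to 0.090 for Hoxb3, -0.15 to 0.19 for 98367_at, -0.29 to 0.12 for 92915_s_at, -0.47 to 0.20 for 96418_r_at and -0.076 to 0.59 for 102580_r_at. The median deviation of the 4 members above the median from their mean was 0.53, 0.72, -0.33, 0.14 and -0.55 in samples 1 to 5, against -0.05, 0.07, -0.00, 0.19 and -0.08 over the 5814 probe sets that, like these 4, averaged above it. Leaving out 1 sample gave 0.084 to 0.37 for sample 1, 0.24 to 0.76 for sample 2, -0.32 to -0.019 for sample 3, -0.38 to 0.080 for sample 4 and -0.79 to -0.14 for sample 5, and the direction for sample 4 changed. As deposited, the deviation was 2.41 in sample 1, 0.17 in sample 2 and -0.54 in sample 4, and over all 41 without a filter -0.079 in sample 2 and 0 in sample 5. The causes were not tested beyond the construction of each alternative. Signal over background limits the 24 probe sets that exceeded the highest non-mouse control on no array.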
